A study of Mus musculus with 8 samples.

Results

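The 50 genes described here encode proteins that carry a cell through mitosis, from the kinases that start it to the machinery that pulls the daughter cells apart. They were taken by symbol from a fixed list, and all 50 were found among the 13439 genes of the deposited expression table. Each was measured in 8 left ventricle libraries from mice, 2 in each of 4 groups. Floxed mice (Lin28afl/fl) are littermates in which the floxed Lin28a gene, encoding an RNA-binding protein that blocks let-7 microRNA maturation, was left in place. Knockout mice (Lin28aCko, called cKO below) lack Lin28a in the heart, per the series' design. No Cre driver, age or sex of the mice is stated in the sources, nor whether each library came from its own animal. Mice of either genotype underwent sham surgery or transverse aortic constriction (TAC), which narrows the aorta and raises the pressure against which the left ventricle pumps. TAC hearts were harvested at day 5; the day of the sham hearts is not stated. The title of the series asks whether loss of Lin28a lessens the hypertrophy caused by pressure overload.

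Mitosis begins when cyclin-dependent kinase 1, bound to cyclins A and B, is switched on together with the Polo and Aurora kinases. Chromosomes condense, kinetochores built on centromeres capture spindle microtubules, and a checkpoint holds the anaphase-promoting complex back until every chromosome is attached. The genes for these proteins are transcribed together late in the cell cycle, through the MuvB complex with B-Myb and FOXM1, which binds a cell cycle homology region (CHR) in their promoters, often next to CCAAT boxes bound by NF-Y. Adult heart muscle cells rarely divide, whereas fibroblasts, macrophages and other cells of the heart wall can. RNA of whole ventricle does not separate them, and more cells that express a gene and more RNA per cell cannot be told apart.

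Because genes of this kind are known for these promoter elements, the sequences before the start of 4 of them are shown first. RefSeq promoters of build GRCm38.p6, running from 250 bases before to 50 bases after a start, were available for 41 of the 50 members. The motif searched was TTTGAA, the CHR core, on either strand (TTCAAA on the other). It was present in 30 of the 41, which is 73.2%, against 20.2% of all 27025 genes with a promoter in the same table. CCAAT, also on either strand (ATTGG on the other), was present in 28 members (68.3%) against 41.1% of all genes. Both motifs stood together in 25 members (61.0%) against 7.97% of all genes, and 19 members (46.3%) had at least 2 CCAAT matches against 13.3% of all genes. The CHR variant TTTAAA was found in 9 members (22.0%) against 14.9%. A motif match describes letters in this window and is not evidence of binding.

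The 4 promoters printed are those with the highest mean expression among members with TTTGAA in the last 100 bases before the start. There 10 of the 41 members (24.4%) had it, against 6.76% of all genes. Each printed stretch gives the 150 bases before the start, 5′ to 3′ on the strand of the gene. Capitals mark TTTGAA or TTCAAA and CCAAT or ATTGG. Top2a lies at chr11:99024190-99024339 on the minus strand, Prc1 at chr7:80294326-80294475 on the plus strand, Mki67 at chr7:135716380-135716529 on the minus strand and Cdk1 at chr10:69352913-69353062 on the minus strand. For Prc1 the stretch ends at the later of 2 annotated starts.
Top2a: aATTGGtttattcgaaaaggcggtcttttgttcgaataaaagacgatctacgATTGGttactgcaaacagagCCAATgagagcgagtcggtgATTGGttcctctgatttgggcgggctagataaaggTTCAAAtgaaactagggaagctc
Prc1: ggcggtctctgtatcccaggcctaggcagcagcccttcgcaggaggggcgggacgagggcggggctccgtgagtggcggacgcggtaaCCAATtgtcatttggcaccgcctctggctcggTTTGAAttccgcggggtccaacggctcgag
Mki67: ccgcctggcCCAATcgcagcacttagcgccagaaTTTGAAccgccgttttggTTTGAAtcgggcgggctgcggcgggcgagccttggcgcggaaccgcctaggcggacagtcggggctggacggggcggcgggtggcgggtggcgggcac
Cdk1: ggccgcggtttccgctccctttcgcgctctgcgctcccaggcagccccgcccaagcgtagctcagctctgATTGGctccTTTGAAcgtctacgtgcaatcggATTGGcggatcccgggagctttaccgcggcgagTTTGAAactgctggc
The CHR core begins at position -23 in Top2a, at -30 in Prc1, at -116 and -98 in Mki67 and at -71 and -15 in Cdk1, counted back from the start. In Top2a 4 CCAAT matches precede it within the printed stretch, and in Prc1 a single one does.

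**Figure D1:**
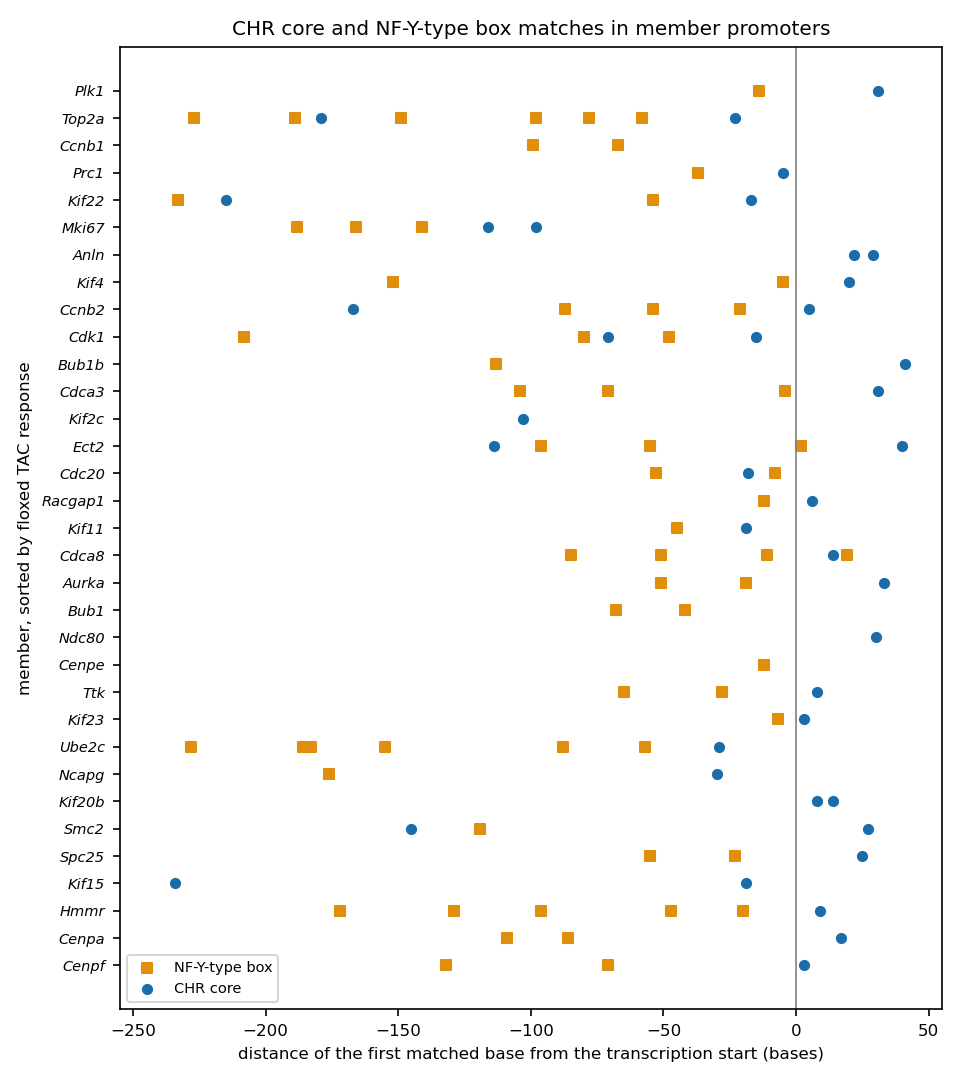
Positions of CHR core matches (blue circles, TTTGAA on either strand) and NF-Y-type boxes (orange squares, CCAAT on either strand) in the 300-base promoters of the 33 members with at least 1 match, sorted from the lowest floxed TAC response (bottom) to the highest (top). The x axis is the distance of the first matched base from the start in bases, and 28 of the 30 members with a CHR core have one between -40 and 50. The share of all genes with a core in that window was not computed. Members with 2 starts are drawn for 1 of them.

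Cenpa and Cenpf, the pair of members that did not rise after TAC (below), carried the core too, at position 17 in Cenpa and at 3 in Cenpf, each with CCAAT matches upstream. Plk1, the member with the largest floxed TAC difference on the log2(CPM + 1) scale, carried it at position 31. Ccnb1 lacked it but had CCAAT matches and the variant TTTAAA, at position -42. The variant was also present in Plk1, Cenpa and Cenpf.

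Levels are given as CPM, in which gene reads are scaled by library total to a common size. Libraries held 10315902 to 21871570 reads, so a gene counted 0 times could still be at up to 0.137 to 0.291 CPM, the worth of 3 reads, from counting error alone. Heart muscle markers summed to 67342 to 106789 CPM over 10 genes in every library. Lin28a itself was not analysed here, and genotypes are taken from the labels. Transcripts of Myl7, the atrial myosin light chain, stood at 133 CPM in floxed sham library 2, at 65.0 in cKO sham library 2 and at 66.2 in cKO TAC library 2, against 0.511 to 6.16 CPM in the other 5. Xist, expressed in female cells, was at 44.3 CPM in cKO sham library 2 and at most 0.173 CPM in the other 7. Ddx3y, a gene of the Y chromosome, was at 0 in cKO sham library 2 and at 32.3 to 63.2 CPM in the other 7. By these genes cKO sham library 2 was female and the other 7 were male. Comparisons that use the cKO sham libraries therefore mix the sexes. Differences below are on the log2(CPM + 1) scale with the standard error of a limma fit across all genes, and a gene passed at a Benjamini-Hochberg adjusted p under 0.05 over 13120 genes. A p-value here reflects the spread between libraries, which may be technical.

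After TAC in floxed hearts, 48 of the 50 members rose, 1 fell (Cenpf) and 1 did not pass (Cenpa). Across all genes tested 42.4% passed, 27.9% upward and 14.5% downward. The median difference of the members was 2.43 on the log2 scale, against 0.14 over all genes, or 0.003 over all genes once libraries were scaled by RLE size factors. Their median level was 1.30 and 2.16 CPM in the floxed sham libraries and 13.5 and 13.0 CPM in the floxed TAC libraries. Mean CPM was more than 4 times higher with TAC for 44 members. For 48 members both floxed TAC libraries lay above both floxed sham libraries, as they did for 46.7% of all genes tested; both lay below for 1 member, Cenpf (28.9% of all genes). All 50 members passed the filter on low values, but 20 of them reached 1 CPM in at least 2 libraries only with the TAC libraries counted, so the share that rose is partly set by the filter for those.

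In cKO hearts 30 members rose after TAC, none fell and 20 did not pass; across all genes tested 2.53% passed, 2.09% upward and 0.442% downward. The median difference of the members was 1.48 against 0.02 over all genes. Both cKO TAC libraries lay above both cKO sham libraries for 48 members, against 23.0% of all genes, and below for none (19.9% of all genes). An unadjusted p under 0.05 was reached by 48 members, all with a positive difference. The number past the threshold rested on single libraries: it was 8 without cKO sham library 2, 12 without cKO TAC library 2, 18 without cKO sham library 1, 17 without either floxed TAC library and 6 without the 3 libraries with atrial transcripts. limma-voom on the recovered reads passed 7, and a fit to the 4 cKO libraries alone passed 5. Bub1b, Kif22, Prc1 and Top2a passed in all 19 alternatives run.

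With TAC, 34 members were lower in cKO than in floxed hearts, none was higher and 16 did not pass. Across all genes tested 24.9% passed, with 16.5% lower and 8.39% higher. The median difference was -1.05 against -0.10 over all genes, and for 48 members both cKO TAC libraries lay below both floxed TAC libraries (40.2% of all genes). They lay above for Cenpf alone (23.6% of all genes). Expressed as mean CPM, the members in cKO TAC hearts stood at 25.3% (Plk1) to 109% (Cenpf) of their floxed TAC level, with a median of 44.4%, and 40 of the 50 lay between 30% and 60%. The count of 34 became 2 without floxed TAC library 2, 2 without cKO TAC library 1 and 5 without floxed TAC library 1, and 19 with a pseudocount of 0.25. Plk1 passed in every one of the 19 alternatives. This comparison shares libraries with the 2 TAC comparisons and is not independent of them.

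**Figure D2:**
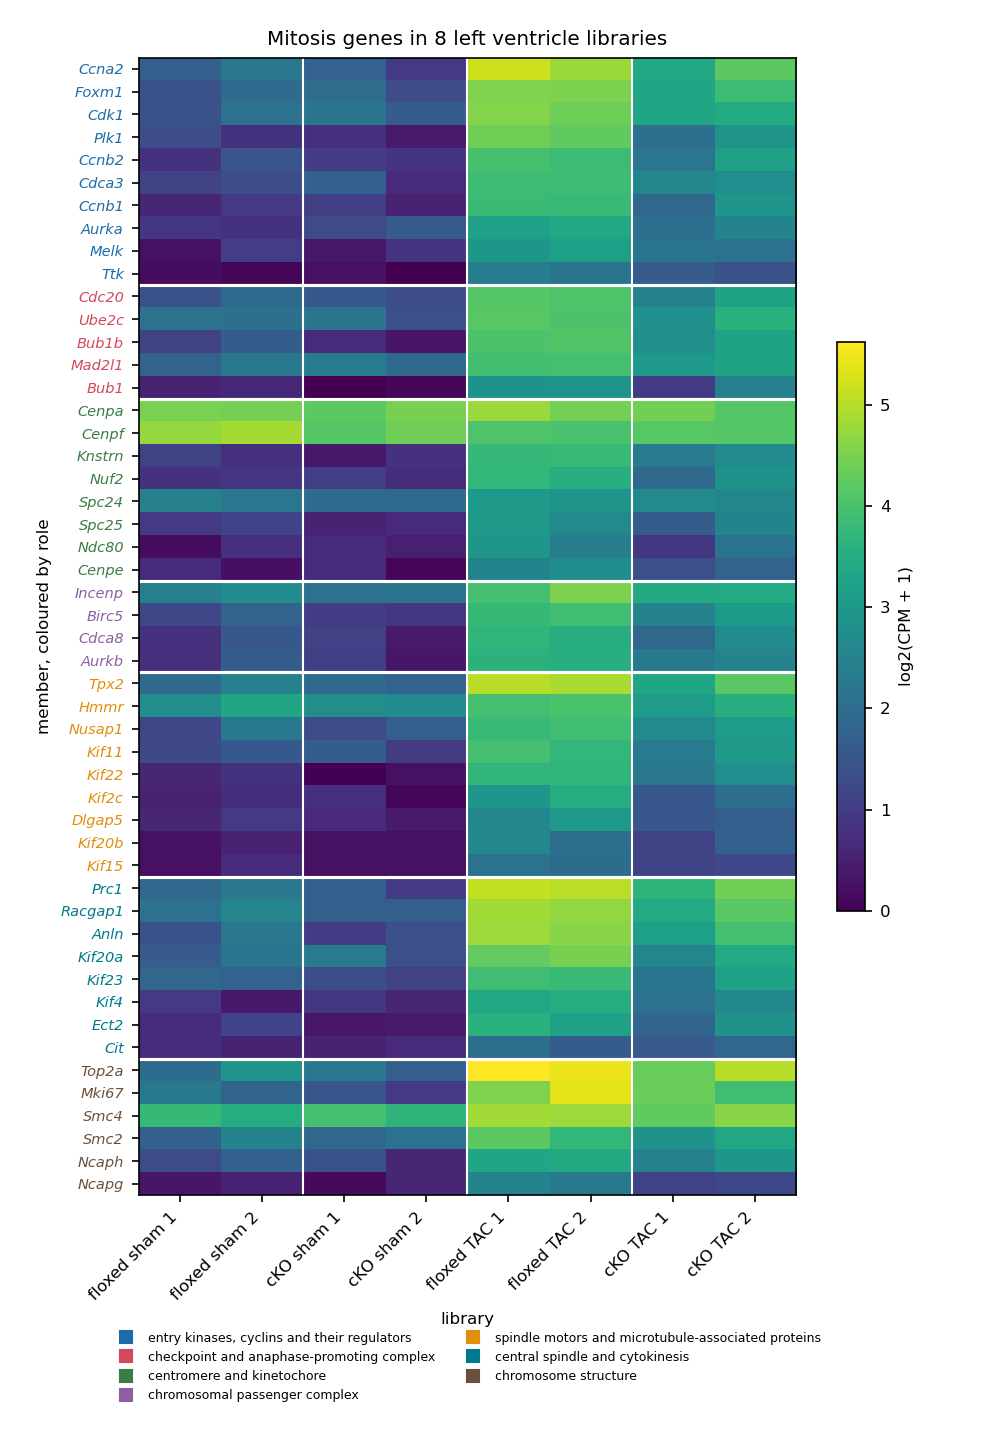
Level of each of the 50 members (rows, grouped by role) in each of the 8 libraries (columns), as log2(CPM + 1) by colour. Floxed TAC columns are the brightest for nearly every row, cKO TAC columns are intermediate, and Cenpa and Cenpf are bright in the sham columns already.

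The entry kinases, cyclins and their regulators moved as a block: 10 of 10 rose in floxed hearts (median 2.74), 9 of 10 in cKO hearts (median 1.57), and 10 of 10 were lower in cKO than in floxed TAC hearts (median -1.14). Plk1 (chr7:122159439-122169873), the Polo-like kinase that drives spindle assembly and later cytokinesis, was at 1.49 and 0.780 CPM in floxed sham, 20.1 and 17.9 in floxed TAC, 0.679 and 0.332 in cKO sham and 3.14 and 6.45 in cKO TAC libraries. Both floxed TAC libraries were far above the rest, and the cKO TAC libraries lay between them and the sham libraries. The TAC difference was 3.24 ± 0.31 in floxed hearts (adjusted p = 6.34e-05) and 1.89 ± 0.31 in cKO hearts (adjusted p = 0.0157). Between the TAC groups Plk1 was lower by -1.84 ± 0.31 (adjusted p = 0.00384), the largest such difference among the members.

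Ccna2 (chr3:36564865-36572150), cyclin A2, was at 2.27 and 3.72 CPM in floxed sham, 35.8 and 26.2 in floxed TAC, 2.42 and 0.929 in cKO sham and 9.54 and 17.3 in cKO TAC libraries. It rose by 3.01 ± 0.35 in floxed hearts and by 2.44 ± 0.35 in cKO hearts (adjusted p = 0.000175 and 0.00936), and the TAC groups did not overlap. Foxm1, the transcription factor that drives many of the other members, was at 1.62 and 2.88 CPM in floxed sham and 22.0 and 21.8 in floxed TAC, with 3.01 and 1.46 in cKO sham and 8.88 and 13.5 in cKO TAC libraries. Its cKO TAC level was 51.2% of the floxed TAC level, the highest share in this role group. Cdk1, the kinase these cyclins activate, was at 1.62 and 3.30, 22.8 and 19.7, 3.49 and 2.12, and 8.94 and 9.91 CPM in the same order of groups.

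Ccnb1 (chr13:100778650-100786570), cyclin B1, was under 1 CPM in both floxed sham libraries (0.519 and 0.900) and at 13.3 and 12.8 in floxed TAC libraries. In cKO hearts it was at 1.07 and 0.465 CPM after sham and at 2.65 and 6.57 after TAC. The cKO libraries with TAC differed from each other by more than the floxed ones did. Ttk, a checkpoint kinase that acts on kinetochores, rested on 2 and 1 reads in the floxed sham libraries and 2 and 0 in the cKO sham libraries, too few for a fold change. After TAC it reached 4.21 and 3.48 CPM in floxed and 2.10 and 1.61 CPM in cKO libraries.

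Aurka (chr2:172356190-172370535), the Aurora kinase of centrosomes and spindle poles, differed from the others in sham hearts. It was at 0.843 and 0.780 CPM in floxed sham and at 1.45 and 2.06 CPM in cKO sham libraries, making it the single member whose cKO sham libraries both lay above the floxed ones (24.9% of all genes). That sham difference, 0.60 ± 0.25, did not pass (adjusted p = 0.619). After TAC it stood at 8.28 and 9.43 CPM in floxed and at 3.14 and 4.78 CPM in cKO libraries. The TAC difference was 2.44 ± 0.25 in floxed hearts (adjusted p = 7.72e-05) and 0.84 ± 0.25 in cKO hearts (adjusted p = 0.121), where Aurka was the one member of its role group that did not pass.

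**Figure D3:**
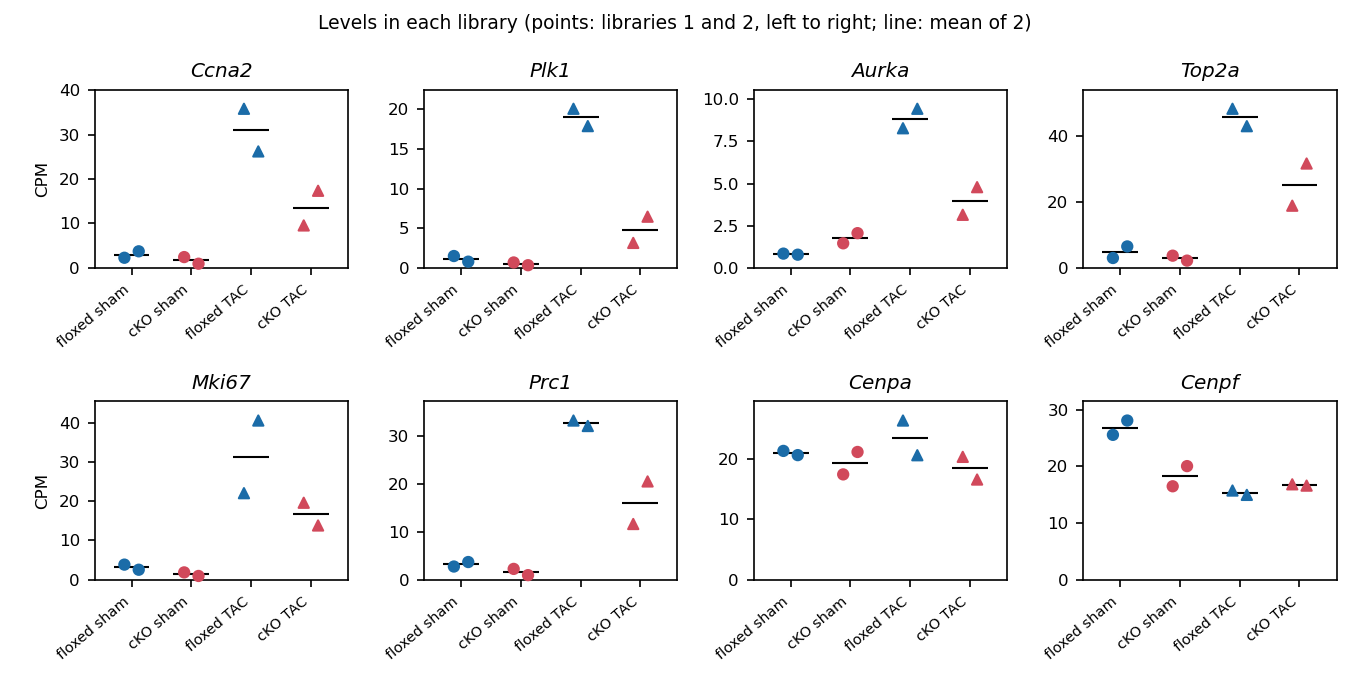
CPM of 8 members in each library (y axis, linear, starting at 0), with floxed libraries in blue, cKO libraries in red, sham as circles, TAC as triangles and the mean of 2 as a line. Ccna2, Plk1, Aurka, Top2a, Mki67 and Prc1 are highest in floxed TAC libraries, Cenpa is near 20 CPM throughout, and Cenpf is highest in floxed sham libraries at 25.6 and 28.1 CPM.

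Of the 5 members that form or answer the spindle checkpoint, all 5 rose in floxed hearts and 3 in cKO hearts, and 3 were lower in cKO than in floxed TAC hearts. Mad2l1 (chr6:66535390-66547220), the checkpoint protein that sequesters the activator of the anaphase-promoting complex, was at 2.47 and 3.84 CPM in floxed sham, 14.0 and 14.7 in floxed TAC, 3.88 and 2.79 in cKO sham and 7.23 and 8.47 in cKO TAC libraries. It rose in floxed hearts (1.91 ± 0.23, adjusted p = 0.000214) but was just outside the threshold in cKO hearts (1.04 ± 0.23, adjusted p = 0.0528). Cdc20, that activator, was at 1.62 and 2.76 CPM, then 16.7 and 15.9 in floxed hearts, and at 1.94 and 1.53, then 4.52 and 8.59 in cKO hearts. Ube2c, the ubiquitin-conjugating enzyme that works with the complex, was at 3.31 and 3.24, then 16.7 and 15.7 CPM in floxed hearts, and at 3.49 and 1.59, then 6.12 and 11.0 in cKO hearts. The TAC groups of all 3 genes did not overlap, yet the genotype difference of Ube2c did not pass (-0.89 ± 0.31, adjusted p = 0.0622).

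Exons of Ube2c overlap those of Tnnc2 on the other strand over 22.8% of its exon bases. Libraries were made with a stranded kit, but the sources do not say whether strand was used in counting. Overlaps of 10% or more of the exon bases with an opposite-strand gene also involved Kif20a with Cdc23 (29.3%), Kif4 with Pdzd11 (15.1%), Ncapg with Lcorl (13.4%), Ccna2 with Exosc9 (12.5%) and Prc1 with Rccd1 (11.1%), so reads of these pairs may not be separated. The listed partners Cdc23, Pdzd11, Lcorl, Exosc9 and Rccd1 had floxed TAC differences between -0.09 and 0.45 and none passed.

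The 8 centromere and kinetochore members were the least uniform group: 6 rose, Cenpf fell and Cenpa did not pass in floxed hearts, 3 rose in cKO hearts, and 3 were lower in cKO than in floxed TAC hearts. Cenpa (chr5:30666777-30674830), the histone H3 variant that marks centromeres, was at 21.3 and 20.6 CPM in floxed sham, 26.4 and 20.6 in floxed TAC, 17.4 and 21.2 in cKO sham and 20.4 and 16.6 in cKO TAC libraries. The groups overlapped, and the floxed TAC difference was 0.15 ± 0.18 (adjusted p = 0.546), turning to -0.02 without floxed TAC library 1. Cenpf (chr1:189640606-189688086), a large kinetochore and microtubule-associated protein, was at 25.6 and 28.1 CPM in floxed sham, 15.7 and 15.0 in floxed TAC, 16.5 and 20.0 in cKO sham and 16.8 and 16.6 in cKO TAC libraries. It fell by -0.77 ± 0.15 in floxed hearts (adjusted p = 0.00326), while cKO libraries gave -0.11 ± 0.15 (adjusted p = 0.781). The floxed sham libraries were the ones that stood apart, above all 6 others.

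Cenpa and Cenpf were also among the most abundant members in sham hearts. Per kilobase of exon, the floxed sham means were 3.58 CPM for Cenpa, 2.18 for Smc4, 1.74 for Cenpf and 1.57 for Spc24. The length joins the exons of all annotated transcripts, 1531 bases for Ccnb2 and 8390 for Mad2l1, so the order between genes depends partly on the annotation. In floxed TAC hearts the order was led by Ccnb2 at 9.24 CPM per kilobase, Cdc20 at 8.72, Plk1 at 8.63 and Ccna2 at 7.59, with Kif15 at 0.282 and Cit at 0.158 at the bottom. The genes that led before TAC were therefore not those that led after it.

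Nuf2, a subunit of the outer kinetochore complex that grips microtubules, was at 0.779 and 0.840 CPM in floxed sham and 12.2 and 10.7 in floxed TAC, against 1.07 and 0.664 and then 2.81 and 6.34 in cKO hearts. Spc24, a subunit of the same complex, was at 4.48 and 3.60 CPM in floxed sham, 7.27 and 6.50 in floxed TAC, 2.91 and 2.79 in cKO sham and 5.41 and 4.90 in cKO TAC libraries. So 2 parts of a single complex responded on different scales: 2.78 ± 0.31 for Nuf2 and 0.65 ± 0.20 for Spc24 in floxed hearts (adjusted p = 0.000131 and 0.0282). The call for Spc24 was lost in 9 of 20 alternatives, with an adjusted p of up to 0.167 without floxed sham library 2; the others were RLE scaling, edgeR, DESeq2, limma-voom, leaving out any of the other 3 floxed libraries and leaving out the 3 libraries with atrial transcripts. Knstrn, which helps anchor spindle microtubules at kinetochores, was at 1.17 and 0.720, then 12.5 and 12.9 CPM in floxed hearts and at 0.291 and 0.730, then 3.92 and 5.53 CPM in cKO hearts.

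The chromosomal passenger complex, which corrects faulty attachments and then guides cytokinesis, has 4 members here. All 4 rose in floxed hearts, 3 rose in cKO hearts, and all 4 were lower in cKO than in floxed TAC hearts. Birc5 (chr11:117849251-117855743), survivin, was at 1.30 and 2.46 CPM in floxed sham, 12.7 and 13.8 in floxed TAC, 0.969 and 0.863 in cKO sham and 4.74 and 7.32 in cKO TAC libraries. Incenp, its scaffold, was at 4.48 and 5.52, then 14.5 and 21.6 CPM in floxed hearts, and at 3.30 and 3.45, then 9.71 and 9.80 CPM in cKO hearts. For both genes the 4 groups kept the order floxed TAC, cKO TAC, floxed sham and cKO sham without overlap. The genotype difference after TAC was -1.04 ± 0.27 for Birc5 and -0.80 ± 0.22 for Incenp (adjusted p = 0.0208 and 0.0274).

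Spindle motors and microtubule-associated proteins rose in floxed hearts in 9 of 9 cases (median 2.12). In cKO hearts 2 of 9 passed, Tpx2 and Kif22, although all 9 had an unadjusted p under 0.05 there, and 6 of 9 were lower in cKO than in floxed TAC hearts. Tpx2 (chr2:152847964-152895321), which activates Aurora A on spindle microtubules, was at 2.85 and 4.50 CPM in floxed sham, 31.2 and 29.0 in floxed TAC, 2.81 and 2.46 in cKO sham and 8.88 and 17.1 in cKO TAC libraries. Kif22, a chromosome-arm motor, rested on 0 and 3 reads in the cKO sham libraries and on 8 and 13 in the floxed sham libraries; it reached 11.9 and 11.8 CPM in floxed and 3.70 and 5.76 CPM in cKO TAC libraries. Its adjusted p was 3.59e-05 in floxed and 0.0031 in cKO hearts.

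Hmmr, a spindle protein that is also a hyaluronan receptor, had a higher starting level and a smaller change, with 5.84 and 8.88 CPM in floxed sham, 14.6 and 15.2 in floxed TAC, 5.82 and 5.57 in cKO sham and 7.61 and 10.5 in cKO TAC libraries. Its floxed difference of 0.95 ± 0.23 passed (adjusted p = 0.00844) but did not without floxed sham library 1 (adjusted p = 0.0847) or without floxed TAC library 2 (adjusted p = 0.0545). Kif2c, which depolymerises microtubules at kinetochores, was at 0.454 and 0.660, then 6.77 and 10.1 CPM in floxed hearts, and at 0.679 and 0.0664, then 1.88 and 3.11 CPM in cKO hearts. Dlgap5, which stabilises kinetochore fibres, and Kif15, a motor of the spindle, ended at 33.7% and 40.8% of their floxed TAC level in cKO TAC hearts.

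The genes of the central spindle and cytokinesis were the group with the largest median rise in cKO hearts, 1.79, with 7 of 8 passing. In floxed hearts 8 of 8 rose (median 2.47), and 7 of 8 were lower in cKO than in floxed TAC hearts. Prc1 (chr7:80294450-80316259), which bundles the antiparallel microtubules of the central spindle, was at 2.72 and 3.66 CPM in floxed sham, 33.1 and 32.0 in floxed TAC, 2.23 and 0.929 in cKO sham and 11.6 and 20.5 in cKO TAC libraries. The TAC difference was 3.01 ± 0.31 in floxed and 2.72 ± 0.31 in cKO hearts (adjusted p = 8.73e-05 and 0.00354). Racgap1, a GTPase-activating protein of the central spindle, was at 3.24 and 4.86, then 27.6 and 25.0 CPM in floxed hearts, and at 2.23 and 2.26, then 9.87 and 17.2 CPM in cKO hearts. Both genes started lower in cKO sham than in floxed sham libraries, and both ended lower after TAC.

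Kif20a, the motor that brings the passenger complex to the central spindle, was at 2.08 and 3.54, then 18.4 and 21.2 CPM in floxed hearts and at 3.88 and 1.59, then 5.02 and 9.80 CPM in cKO hearts. It was the one gene of this group that did not pass in cKO hearts (1.18 ± 0.36, adjusted p = 0.139). Cit, citron kinase of the midbody, was the exception in the other direction. It was at 0.649 and 0.480 CPM in floxed sham, 3.06 and 2.14 in floxed TAC, 0.485 and 0.597 in cKO sham and 2.04 and 2.65 in cKO TAC libraries. The TAC groups overlapped, and cKO TAC hearts had 90.2% of the floxed level.

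Chromosome structure genes rose in floxed hearts in 6 of 6 cases and in cKO hearts in 3 of 6, and 1 of 6, Ncapg, was lower in cKO than in floxed TAC hearts. Top2a (chr11:98992943-99024189), the topoisomerase that untangles sister chromatids, was the most abundant member after TAC as plain CPM: 48.1 and 42.9 in floxed TAC and 18.8 and 31.6 in cKO TAC, from 2.98 and 6.48 in floxed sham and 3.68 and 2.19 in cKO sham libraries. The TAC groups did not overlap but their difference did not pass (-0.87 ± 0.34, adjusted p = 0.0873). Mki67 (chr7:135689784-135716361), the gene of the Ki-67 proliferation antigen that coats mitotic chromosomes, was at 3.83 and 2.52 CPM in floxed sham, 22.1 and 40.6 in floxed TAC, 1.84 and 0.929 in cKO sham and 19.6 and 13.8 in cKO TAC libraries. The floxed TAC libraries differed widely for this gene, and the lower of them was close to the higher cKO TAC library. Its TAC difference was 2.91 ± 0.33 in floxed and 2.90 ± 0.33 in cKO hearts (adjusted p = 0.000142 and 0.00348).

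The condensin subunits, which compact chromosomes, covered a wide range. Smc4 was at 12.6 and 10.1, then 27.5 and 26.8 CPM in floxed hearts, and at 14.2 and 11.6, then 18.04 and 23.7 CPM in cKO hearts, where it did not pass (0.65 ± 0.19, adjusted p = 0.122). Ncaph was at 1.43 and 2.34, then 8.92 and 9.66 CPM, and at 1.65 and 0.531, then 4.58 and 6.86 CPM. Ncapg had 0.260 and 0.420, then 4.76 and 3.81 CPM in floxed hearts and 0.0969 and 0.531, then 1.16 and 1.33 CPM in cKO hearts. After TAC the cKO level was 77.0% of the floxed level for Smc4, 61.6% for Ncaph and 29.0% for Ncapg. Ncapg lost its genotype call in 1 of 19 alternatives.

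In sham hearts none of the 50 members passed between genotypes, in limma, edgeR, DESeq2 or limma-voom, and 0.0534% of all genes did in limma, 0.0457% higher and 0.00762% lower in cKO hearts. An unadjusted p under 0.05 was reached by 7 members, 6 lower and 1 higher in cKO hearts. The median difference was -0.25 against 0.02 over all genes, and became 0.03 without the 3 libraries with atrial transcripts. Both cKO sham libraries lay below both floxed sham libraries for 17 members (17.1% of all genes did so), among them Plk1, Prc1, Racgap1, Birc5, Incenp and Mki67. At sham level many members rest on few reads, for example 7 and 5 reads of Plk1 in the cKO sham libraries. Members with more reads did not pass either: Cenpf, with 394 and 468 reads in floxed and 170 and 302 in cKO sham libraries, had the lowest adjusted p of the members, 0.475.

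Whether the TAC response itself differed between genotypes was tested as an interaction, the cKO response minus the floxed response. A single member passed, Aurka, at -1.60 ± 0.35 (adjusted p = 0.0182). Of all genes 14.1% passed, 9.18% with a negative and 4.93% with a positive interaction. Missing the threshold does not show that the other members responded alike in both genotypes. Ccnb1 (-1.45 ± 0.49, adjusted p = 0.0751), Plk1 (-1.35 ± 0.44, adjusted p = 0.0700), Kif20a (-1.29 ± 0.51, adjusted p = 0.119) and Nuf2 (-1.27 ± 0.44, adjusted p = 0.0816) came next. At the other end lay Cenpf (0.65 ± 0.22, adjusted p = 0.0758), Spc24 (0.03 ± 0.29), Mki67 (-0.01 ± 0.46), Cit (-0.08 ± 0.35) and Ncaph (-0.14 ± 0.44). The 10 entry regulators had a median of -1.06, the 8 cytokinesis genes -0.50 and the 6 chromosome structure genes -0.46; these medians were not tested against each other.

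The interaction depended on the scale. On log2(CPM + 1) 48 of 50 members had a negative value (median -0.70, against -0.13 over all genes and -0.02 with RLE scaling), and 16 of those 48 had an unadjusted p under 0.05. Of the positive ones, Cenpf alone did. In edgeR, which adds a smaller prior count to the recovered reads, 36 were negative and the median was -0.45. Kif22, with 0 and 3 reads in cKO sham, turned from -0.60 to 1.21, and Mki67 from -0.01 to 0.48. Cenpf passed with a positive interaction in edgeR (0.80, adjusted p = 0.0390), DESeq2 (adjusted p = 0.0490), limma-voom (adjusted p = 0.0412) and with RLE scaling (adjusted p = 0.0399). Aurka passed in edgeR (-2.17, adjusted p = 0.0226), DESeq2 (adjusted p = 0.00990) and limma-voom (adjusted p = 0.0431). It missed when any single floxed library was left out (adjusted p = 0.0572 to 0.0738), without cKO sham library 2 (adjusted p = 0.0504) and without cKO TAC library 1 (adjusted p = 0.0502).

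Without the 3 libraries with atrial transcripts the median interaction of the members was -1.23, against -0.70 with all 8 libraries. The cKO TAC libraries were unequal: library 2 was the higher for 44 of 50 members (88.0%, against 63.0% of all genes), and the members summed to 300.4 CPM in library 1 and 435 CPM in library 2. Floxed TAC libraries summed to 752 and 730 CPM, floxed sham libraries to 133 and 167 CPM and cKO sham libraries to 123 and 107 CPM.

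**Figure D4:**
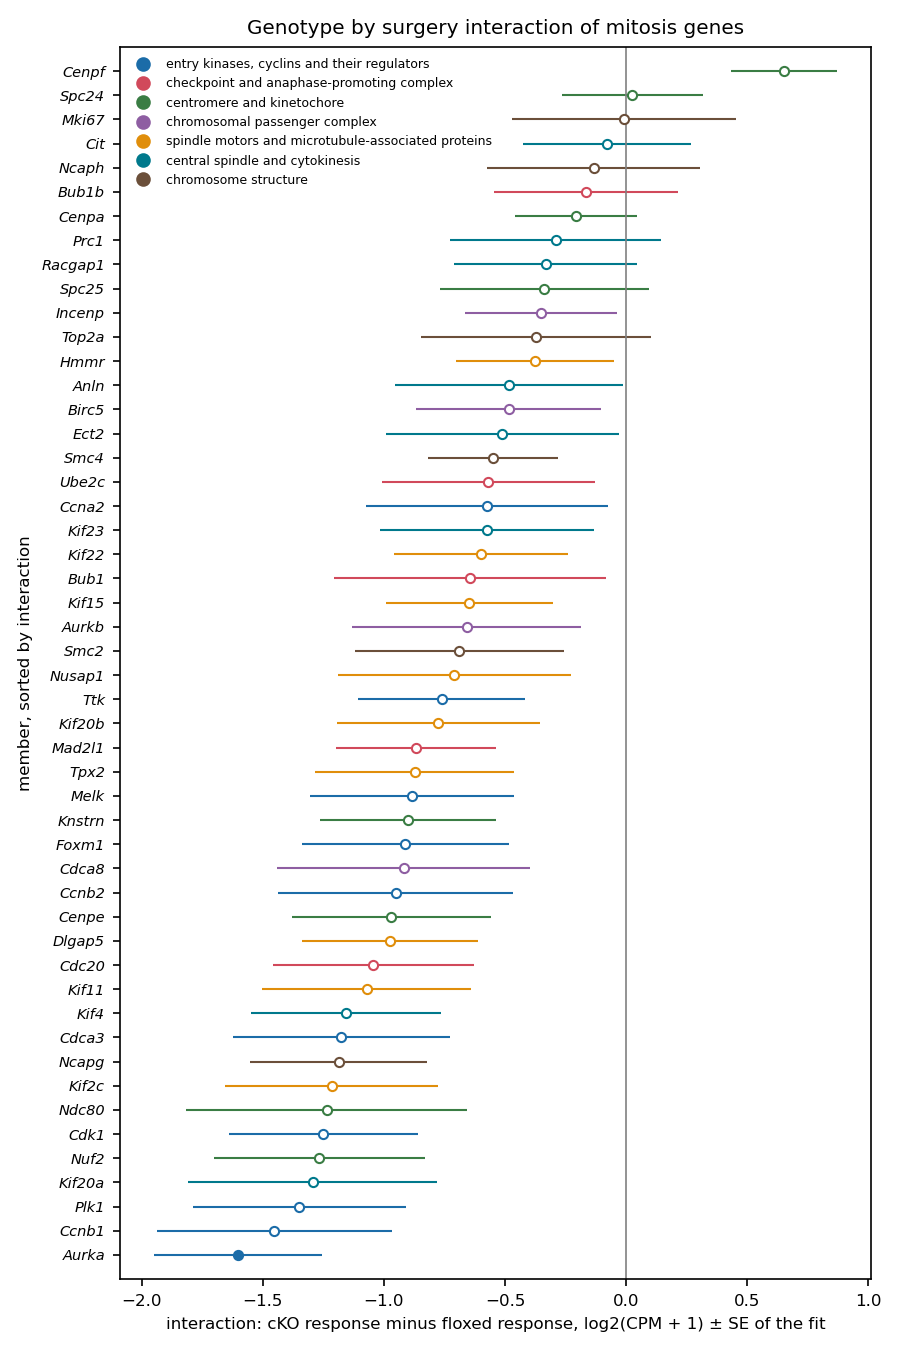
Interaction of each of the 50 members (x axis, cKO response minus floxed response in log2(CPM + 1), bars the standard error of the fit), sorted and coloured by role; a filled point passed the threshold. Aurka at -1.60 is the filled point, Cenpf at 0.65 is the highest, and 48 of 50 lie left of 0.

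The TAC responses of the 2 genotypes share no library. Across the 50 members they had a Pearson r of 0.817, and 0.618 across all 13120 genes; genes are not independent replicates, and members with few sham reads share the same limit. The signed TAC difference was lower (less positive or more negative) in cKO than in floxed hearts for 48 of 50 members and for 7857 of 13120 genes.

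**Figure D5:**
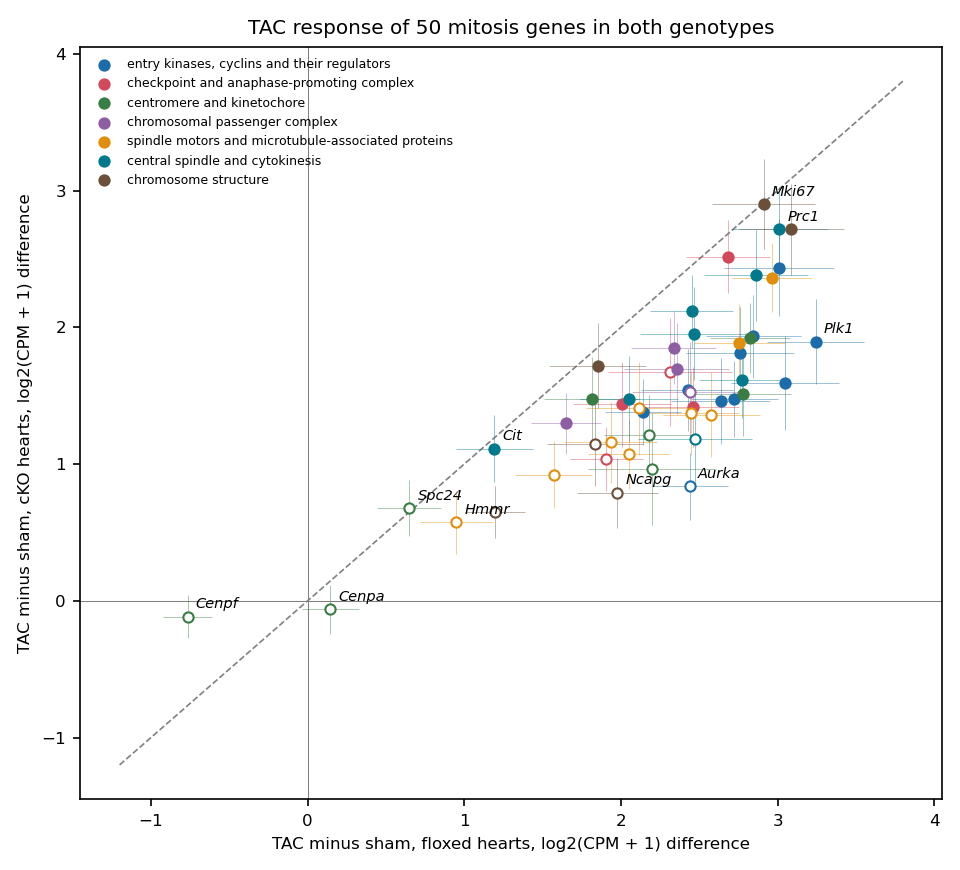
TAC minus sham difference of each member in floxed (x axis) and cKO hearts (y axis), in log2(CPM + 1) with bars for the standard error of the fit, coloured by role; filled points passed in the cKO comparison and the dashed line marks equal responses. All points but Cenpf and Spc24 lie below the line, and Cenpa and Cenpf lie apart from the other 48.

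Other genes of the cell cycle were read from 6 lists. Of 58 further mitotic genes 57 were tested, and 52 rose and 1, Sgol2 (shugoshin 2, a protector of centromeric cohesion), fell in floxed hearts; 14 rose in cKO hearts and 34 were lower in cKO than in floxed TAC hearts. The lowest p-values belonged to Tacc3, a spindle stabiliser (2.35 ± 0.23), Fam83d (2.44 ± 0.26), Fam64a (2.77 ± 0.30) and Cks2, a subunit of cyclin-dependent kinases (2.33 ± 0.26). Sgol2 was at 16.4 and 11.9 CPM in floxed sham and 8.82 and 6.64 in floxed TAC libraries, and at 12.9 and 12.3, then 11.9 and 12.7 CPM in cKO libraries. Like Cenpf it was high in sham hearts and fell after TAC in floxed hearts (-0.79 ± 0.21, adjusted p = 0.0117). The interaction passed for 3 genes of this list, all negative: Depdc1a (-1.64), Cenpt (-1.54) and Cenpw (-1.23).

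Of the 22 MuvB, pocket protein and E2F genes that act upstream, 11 rose and 5 fell in floxed hearts, where 27.9% of all genes rose and 14.5% fell. Mybl2 (B-Myb, 2.09 ± 0.37) and E2f2 (1.63 ± 0.28) were among the 11 that rose. The 5 that fell were Rbl2 (p130, -0.66 ± 0.12), E2f6 (-0.63 ± 0.11), Tfdp2 (-0.87), Lin52 (-0.65) and Nfyc (-0.33). The list mixes activators and repressors, and their directions were not compared as sets. Rbl2 was at 57.8 and 59.4 CPM in floxed sham, 35.4 and 38.3 in floxed TAC, 52.7 and 62.3 in cKO sham and 56.9 and 53.4 in cKO TAC libraries, so the floxed TAC libraries alone were low. The interaction of Rbl2 passed narrowly (0.60 ± 0.18, adjusted p = 0.0494), as did that of Tfdp2 (1.01 ± 0.26, adjusted p = 0.0345).

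In the core of the anaphase-promoting complex 4 of 15 genes rose, Anapc13 fell (-0.59 ± 0.10) and 10 did not pass in floxed hearts, at a median of 0.23, shares near the 27.9% of all genes that rose and not above the 14.5% that fell. Its activator Cdc20 and partner enzyme Ube2c, members described above, rose by 2.46 and 2.01. Of 10 cyclins and kinases of G1 and S phase 4 rose and none fell in floxed hearts, not far from the shares of all genes, led by Ccne1, cyclin E1 (1.27 ± 0.27), and Cdk4 (0.59 ± 0.13). DNA replication genes rose in 16 of 17 cases in floxed hearts and in 3 of 17 in cKO hearts, with Rrm2, a ribonucleotide reductase subunit, going from 3.76 and 3.84 to 19.2 and 19.6 CPM in floxed and from 2.91 and 1.92 to 5.96 and 7.49 CPM in cKO libraries.

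Among 6 tested inhibitors of cyclin-dependent kinases 4 rose and 1 fell in floxed hearts. Cdkn1c (p57) was at 36.1 and 29.5 CPM in floxed sham, 6.49 and 6.13 in floxed TAC, 26.3 and 25.9 in cKO sham and 18.3 and 14.0 in cKO TAC libraries. The floxed TAC libraries were the lowest and the cKO TAC libraries lay between them and sham, the reverse of the order of most mitosis members. Cdkn1c fell by -2.20 ± 0.18 in floxed hearts (adjusted p = 2.99e-05) and its interaction passed (1.53 ± 0.25, adjusted p = 0.00804). Cdkn1a (p21) rose by 2.59 ± 0.51 in floxed hearts (adjusted p = 0.00270), from 13.5 and 11.0 to 82.8 and 74.6 CPM.

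Markers of macrophages moved in the same groups as the members. Those of fibroblasts, smooth muscle and neutrophils did so in part, and heart muscle and endothelial markers did not. Of all genes tested 27.9% rose and 14.5% fell in floxed hearts, and 2.09% rose in cKO hearts. Between the TAC groups 16.5% were lower and 8.39% higher in cKO hearts. Macrophage markers rose in 11 of 11 cases in floxed and 9 of 11 in cKO hearts, and 11 of 11 were lower in cKO than in floxed TAC hearts. They summed to 419 and 427 CPM in floxed sham, 2414 and 2136 in floxed TAC, 453 and 345 in cKO sham and 757 and 1041 in cKO TAC libraries. Fibroblast markers rose in 7 of 9 cases in floxed and 4 of 9 in cKO hearts, and 5 of 9 were lower in cKO than in floxed TAC hearts. Their sums were 1515 and 1636, 12032 and 15479, 1628 and 1847, and 3458 and 5805 CPM in the same order. Both sums were highest in floxed TAC and next in cKO TAC libraries, as the sum of the mitosis members was, and in both cKO TAC library 2 exceeded library 1. Between the sham groups the fibroblast sums overlapped, and so did the macrophage sums. No marker of either type passed there, and no mitosis member did. The sums of the members were 133 and 167 CPM in floxed sham and 123 and 107 CPM in cKO sham libraries. Of 10 heart muscle markers 7 fell and 1 rose in floxed hearts, and 7 were higher in cKO than in floxed TAC hearts. The 8 endothelial markers had median differences of -0.13 in floxed and -0.33 in cKO hearts, with 0.133 the lowest adjusted p in any comparison and up to 4 at an unadjusted p under 0.05. Smooth muscle and pericyte markers rose in 4 of 7 cases and fell in 1, and neutrophil markers rose in 3 of 4, in floxed hearts. In cKO hearts 1 of 7 and 0 of 4 rose. Between the TAC groups 3 of 7 and 1 of 4 were lower in cKO hearts. Smooth muscle sums were 701 and 722, 1065 and 1035, 646 and 730, and 695 and 1023 CPM, in the group order used for macrophages. Neutrophil sums were 19.7 and 20.0, 31.5 and 30.6, 24.2 and 22.6, and 26.8 and 25.3 CPM in that order. The single lymphocyte marker and the 2 erythroid markers tested did not pass in any comparison. No listed marker was at 0 in all libraries, and the part of these cell types in the result was not tested.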

How the data were processed

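CPM values, 1 column per library, were used as the authors deposited them. The submitters' processing notes name Bowtie2 2.2.6, HTSeq, DESeq2 and mm10, and the annotation and strand setting behind the counting are not stated there. Every value (100%) was a whole number of reads within 0.02 reads, so reads were recovered for alternatives. Reads of genes that are not listed made up 0.153% to 0.201% of a library.

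limma 3.58.1 (R 4.3.3, trended prior) was fitted to log2(CPM + 1) in all 8 libraries with 1 coefficient per group. The fit was also run on simulated counts. These held no shift common to the genes of a library, so the run checks the code and not the error rate here. A gene was kept if 2 or more libraries reached 1 CPM (13120; 319 removed). Adjustment was Benjamini-Hochberg over all of these genes. edgeR 4.0.16, DESeq2 1.42.0 and limma-voom on the reads were alternatives, with other pseudocounts, filters, scaling and left-out libraries. Gene coordinates and exon lengths are those of GENCODE M21 on GRCm38, the assembly also called mm10.

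The members and lists were chosen with earlier results of these data known. Genes were named by rule: in each role group the 2 with the highest mean CPM, the 5 lowest and 5 highest interactions, the 3 lowest in mean CPM, those that missed the threshold in floxed hearts, those that passed for the interaction, and the 10 lowest p-values between genotypes. For each other list the rule asked for the 4 lowest p-values and up to 4 genes that passed against the majority. Fewer were named for DNA replication, the anaphase-promoting complex, G1 and S phase genes and kinase inhibitors, and that choice was not set by the rule. Cdk1 was named for its promoter. Ccnb2, Bub1b, the overlapping genes and those that passed the interaction in other lists were chosen after their values were seen. Identical replicate numbers in the labels mark no stated litter or day. Deviations of same-numbered libraries from their group means had correlations of -0.106 to 0.0812 between groups, so the numbers were not taken to pair the libraries.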

Additional observations from a re-analysis of the deposited data

Results flagged for a closer look

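In the limma fit on log2(CPM + 1), Aurka was the one member whose TAC response differed between genotypes by the test of the difference itself. Its interaction was -1.60 ± 0.35 on the log2(CPM + 1) scale (limma, adjusted p = 0.0182). Aurka was higher in both cKO sham libraries (1.45 and 2.06 CPM) than in both floxed sham libraries (0.843 and 0.780 CPM) and lower in both cKO TAC libraries (3.14 and 4.78 CPM) than in both floxed TAC libraries (8.28 and 9.43 CPM). The call was lost in 6 of 18 alternatives, all leaving out 1 library, with an adjusted p of up to 0.0738. Cenpf, which missed in that fit (0.65 ± 0.22, adjusted p = 0.0758), passed the same test in edgeR (adjusted p = 0.0390), DESeq2 (0.0490), limma-voom (0.0412) and with RLE scaling (0.0399). The sham values of Aurka rest on 13 and 13 reads in floxed and 15 and 31 reads in cKO libraries.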

How the results depend on the processing

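The median rise of the members depends on the value added before the logarithm. In floxed hearts it was 2.74 with a pseudocount of 0.5, 2.98 with 0.25, 3.01 in edgeR, 3.004 in DESeq2 and 3.09 in limma-voom, and in cKO hearts 1.83, 2.13, 2.48, 2.46 and 2.46. The sham difference was -0.56 in edgeR and -0.55 in DESeq2. With 0.25 added, 19 members were lower in cKO TAC hearts. In cKO hearts 688 genes passed in DESeq2, 133 in limma-voom (7 members) and 45 with the 4 cKO libraries alone (5 members). Between sham groups 49 genes passed in DESeq2 and 2 in limma-voom. For the interaction 1 member, Cenpf, passed upward with RLE scaling, edgeR, DESeq2 and limma-voom. Another fit left out floxed sham library 2, cKO sham library 2 and cKO TAC library 2. These were chosen after the data were seen, for their atrial transcripts. In that fit 53 genes and 6 members passed in cKO hearts (median 1.03), and the median between sham groups was 0.0287. There 21 members passed the threshold with a negative interaction, and the median interaction of the members was -1.23.

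Leaving out 1 library at a time gave 3618 to 5919 genes in floxed hearts. In cKO hearts it gave 71 to 615 genes, 8 to 33 members and medians of 1.10 to 1.81. Between sham groups 1 to 15 genes passed, and between TAC groups 1400 to 3622 genes and 2 to 37 members. The interaction gave 254 to 2919 genes and 0 to 13 members. Cenpa in floxed hearts ranged from -0.0242 (without floxed TAC library 1) to 0.316. An arm left with 1 library was assumed to vary like the other groups. In floxed hearts the members that rose numbered 46 to 48 in every alternative run. The cause of these shifts was not tested.

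With a replicate block, 48 members rose and 1 fell in floxed hearts, 26 rose in cKO hearts, 36 were lower in cKO TAC than floxed TAC hearts and 1 passed for the interaction. Crossing the numbers of the floxed TAC libraries gave 48 members and 5596 genes in floxed hearts.

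Depth limits the precision of low sham values: 20 members reached 1 CPM in 2 libraries only with TAC libraries counted.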

Other observations

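Pttg1, which encodes securin, the inhibitor of the enzyme that splits sister chromatids, had levels unlike those of any mitosis member and was singled out after its values were seen. It was at 50.0 and 51.7 CPM in floxed sham, 29.8 and 9.52 in floxed TAC, 3.68 and 4.25 in cKO sham and 82.2 and 6.45 in cKO TAC libraries. Libraries of the same TAC group differed severalfold, and no comparison passed (interaction 3.86 ± 1.25, limma, adjusted p = 0.0682).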
